A study of Mus musculus with 12 samples.

Results

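AP-1 is a family of transcription factors that bind DNA as pairs through a basic region and a leucine zipper (bZIP). The 10 genes described here are the Fos proteins Fos, Fosb, Fosl1 and Fosl2, the Jun proteins Jun, Junb and Jund, the short bZIP proteins Batf and Batf3, and Atf3. They were taken from the table by gene symbol, a set put together with earlier results of these data known, and are 10 of 20778 genes. All 10 passed the filter on low counts and are among the 12122 genes tested. Mouse splenic CD8 T cells were measured by mRNA sequencing after culture without treatment (Naïve), with an antibody to the T cell receptor component CD3 (αCD3), with the cytokine interferon gamma (IFNγ) or with the bacterial cell wall component lipopolysaccharide (LPS), to compare the profile induced by IFNγ with those of the other treatments.

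All mice were C57BL/6, 6 weeks old by the labels, although the methods of the study give an older age. The cells were selected from spleen with magnetic beads and kept in culture for 6 hours in every group. αCD3 and LPS were given at 1 µg/ml and IFNγ at 70 ng/ml, and another field of the labels writes the first 2 doses in mg/ml, so that this unit is uncertain. The general T cell culture of the study used medium with interleukin 2 and plates coated with an antibody to CD3, except where the methods say otherwise. Whether any of the 4 groups, Naïve included, had that medium or such plates here is not given in the sources used. Each group had 3 libraries with 10.2 M to 27.6 M counts each, and nothing says whether they came from separate mice, so p-values measure the spread between these libraries, which may be technical.

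Fos proteins pair with Jun proteins, whereas Jun proteins also pair with each other. These dimers bind a short palindromic element, and many members are immediate early genes whose mRNA appears and decays quickly after a stimulus. In T cells, AP-1 acts with NFAT at cytokine genes after T cell receptor signalling, and Batf with Jun proteins binds composite elements together with Irf4 or Irf8. Jun is switched on by stress kinases that phosphorylate the protein. None of these steps at the protein level was measured here.

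The label CD8 T cells was checked against marker genes before the results. All 9 T cell markers, among them Cd3e, Cd8a and Cd8b1, were detected in every library, and so were all 8 B cell markers, among them Cd79a and Ms4a1. Per kilobase of exon, the median level over the list was 24.8 to 32.7 CPM (read counts after scaling for library depth) for B cell markers and 8.16 to 18.6 CPM for T cell markers, and B cell markers were the higher of the lists in every library. Macrophage and monocyte markers were detected too, with a summed level of 238 to 732 CPM. RNA of B cell genes, which the label does not name, was thus present in every library. Fewer cells of a type and less RNA per cell cannot be told apart in these bulk libraries. LPS replicate 1 stood apart from the other LPS libraries in Jun, Atf3, Fosl2, Fosl1 and Batf3, and values without it are given beside the main results.

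**Figure D1:**
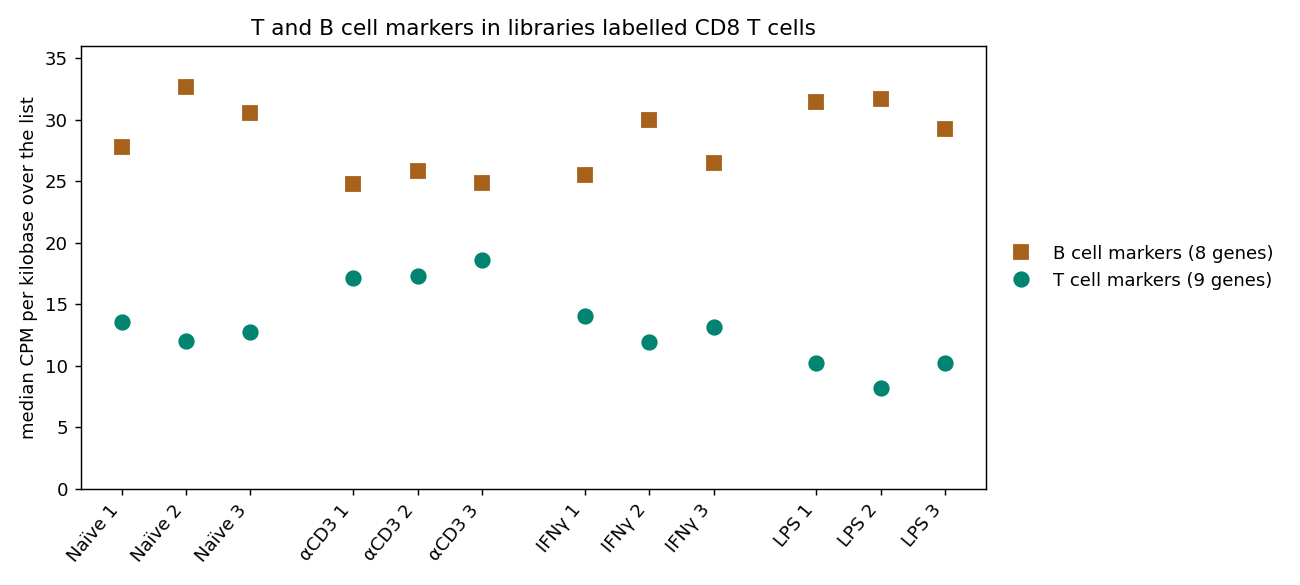
Median level of B cell markers (squares, 8 genes) and T cell markers (circles, 9 genes) in CPM per kilobase of exon, in each of the 12 libraries. The squares lie above the circles in every library, between 24.8 and 32.7 against 8.16 and 18.6, and the circles are highest in αCD3.

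Proximal promoters of the members were read to show which binding elements lie near their starts. RefSeq entries (GRCm38.p6) covering 250 bases before to 50 bases after the start were present for 9 of the 10 genes, without Fosl1, and both strands were searched. The AP-1 element itself (TGACTCA or TGAGTCA), the cAMP response element TGACGTCA and the CArG box of serum response factor matched none of the 9 windows, against 5.20%, 1.79% and 1.63% of 32851 mouse promoters. The Jun promoter held the variant TGACATCA, 45 bases before its start, which is shown because Jun changed most in IFNγ. The pattern TGACNTCA, added after the first searches, occurs in 8.83% of all promoters. The NF-κB element matched in Fos, Fosb and Fosl2 (8.46% of all promoters), and the STAT element TTCNNNGAA (GAS), bound by the factors below the IFNγ receptor, matched in Batf3 alone (8.30% of all promoters). Windows of 30 bases are given 5′ to 3′ on the strand of the gene, with the match in capitals. They lie at chr4:95052249-95052278 (minus strand) for Jun, chr12:85473666-85473695 (plus) for Fos, chr7:19310214-19310243 (minus) for Fosb, chr5:32136280-32136309 (plus) for Fosl2 and chr1:191098165-191098194 (plus) for Batf3.
Jun: aagcctcggggTGACATCAtgggctatttt
Fos: ggaaggtctaGGAGACCCCCtaagatccca
Fosb: acgcagccttGGGGACCCCCgagaccccca
Fosl2: agatcggggaGGGAGTCCCCcagagctgcc
Batf3: gccacgtgacTTCCACGAAgagcgggggcc

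These matches are letters in a window and not binding sites. The Jund window lies at a RefSeq start 1210 bases upstream of the start of Jund in the GENCODE annotation, so it does not cover the sequence next to that start, whereas the other 8 windows were placed nearer to an annotated transcript start. The 8 windows without that of Jund had a median of 23 CpG per window against 7 over all promoters, and Batf (9) was the lowest of them.

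In the Naïve libraries, Jund and Junb made up most of the AP-1 mRNA. Per kilobase of exon, the Naïve level of Jund was 270 ± 17.7 CPM (mean ± SD, n = 3), that of Junb 190 ± 18.6 CPM, and that of Jun 39.3 ± 2.86 CPM. Batf followed at 31 ± 2.71 CPM per kilobase and Atf3 at 10.3 ± 4.49. The Fos proteins were far below the Jun proteins, with Fos at 7.36 ± 1.61, Fosl2 at 6.41 ± 0.817, Fosb at 1.03 ± 0.842 and Fosl1 at 0.346 ± 0.0108 CPM per kilobase. Fos and Fosl2 did not differ beyond their spread, and neither did Fosb and Batf3 (1.07 ± 0.536). With the longest transcript in place of all exons, Batf stood above Jun, and Fosl2 above Fos, in the Naïve order.

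The make-up of the family differed between treatments. Jund held 48.4 ± 2.88% of the summed Naïve level per kilobase of the 10 genes and 23.9 ± 3.43% in LPS. Jun held 7.05 ± 0.470% in Naïve, 10.5 ± 1.86% in αCD3, 29.2 ± 2.95% in IFNγ and 17.2 ± 5.19% in LPS, whereas Batf held 5.56 ± 0.453% in Naïve and 18.3 ± 0.355% in LPS. The share of Junb stayed between 31.5 ± 0.811% (IFNγ) and 36.9 ± 3.66% (αCD3) on average. In IFNγ, Junb, Jund and Jun lay at 202 ± 15.4, 191 ± 5.12 and 188 ± 27.5 CPM per kilobase, so that their order was within the spread of the libraries. These shares are ratios within a library and show unequal change, not which gene moved.

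**Figure D2:**
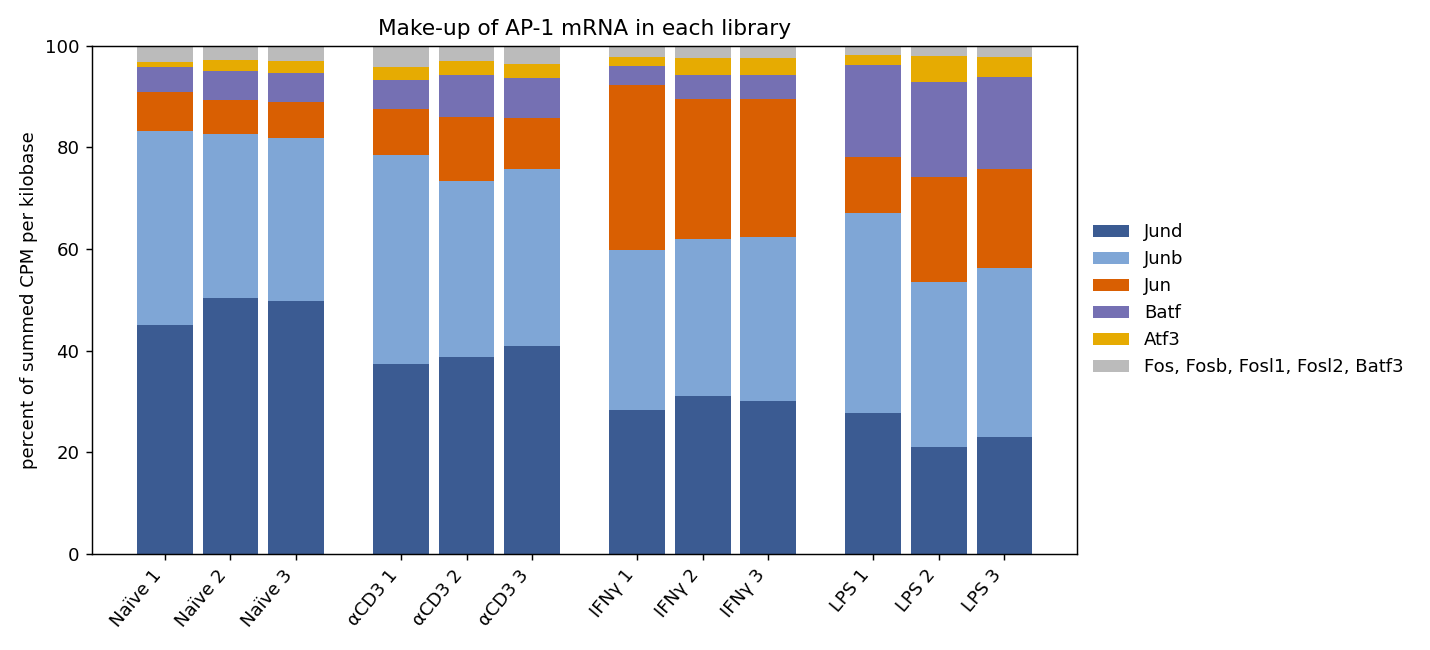
Share of each AP-1 gene in the summed CPM per kilobase of exon of the 10 genes (percent), one bar per library, with the 5 lowest genes joined. The Jun segment is widest in IFNγ (29.2% on average) and the Batf segment in LPS (18.3%), while Jund is widest in Naïve (48.4%).

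When all 4 groups were tested at once, 6 of the 10 genes differed, namely Batf, Jun, Jund, Junb, Fosl1 and Atf3 (quasi-likelihood F-test of edgeR, adjusted p under 0.05). Of all genes tested, 59.9% were called by the same test, so the share was near the background. Batf had the lowest p of the members (adjusted p = 7.85e-07) and ranked 32 of 12122. Libraries with the same replicate number deviated together, and with the replicate number as a block Fos was called as well (adjusted p = 0.00452). Without LPS replicate 1, Fos (adjusted p = 0.0375) and Fosl2 (0.00146) were called in addition, and without αCD3 replicate 1 Fos was (0.0206). Fos was also called with library sizes alone as the scaling (adjusted p = 0.0358). DESeq2 called both Fos (adjusted p = 0.0452) and Fosl2 (0.0431). The call of Atf3 was lost without LPS replicate 2 (adjusted p = 0.0898) or replicate 3 (0.0662).

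Against Naïve, αCD3 changed 2 of the 10 genes, 1 higher and 1 lower, IFNγ also 2, 1 in each direction, and LPS 7, with 5 higher and 2 lower. Of all tested genes, αCD3 changed 38.6% (22.9% higher and 15.7% lower), IFNγ 12.4% (8.17% and 4.27%) and LPS 49.3% (26.9% and 22.3%). With the replicate number as a block, the shares over all tested genes were 52.4%, 24.9% and 59.5%, and these are the background of every count given with the block. The 3 comparisons share the Naïve libraries. The median log2 fold change of the 10 genes was 0.24, −0.09 and 0.71 in αCD3, IFNγ and LPS, against −0.02, −0.02 and −0.01 over all tested genes.

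**Figure D3:**
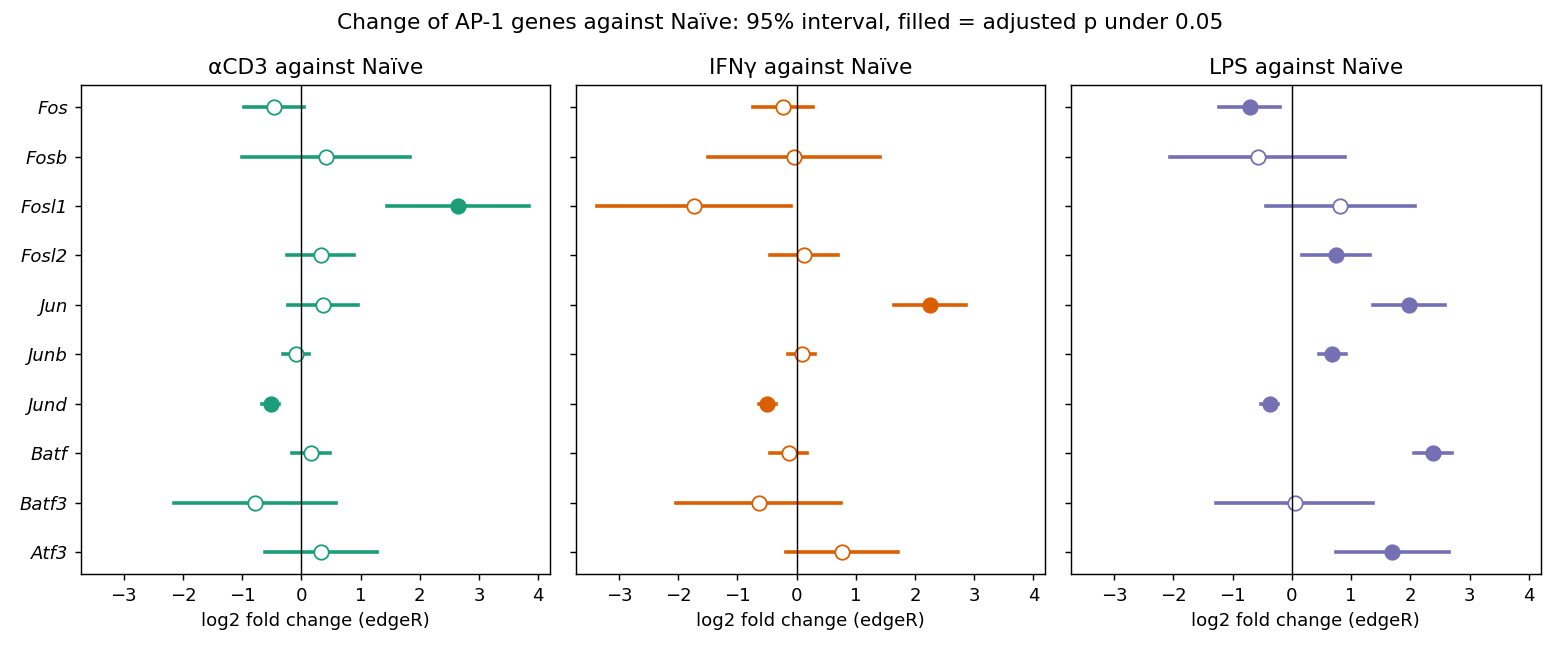
Log2 fold change against Naïve of the 10 AP-1 genes in αCD3, IFNγ and LPS (edgeR, 3 libraries a group), with 95% intervals, filled where the adjusted p was under 0.05. Jun lies at 2.25 in IFNγ and 1.98 in LPS, Batf at 2.38 in LPS, Fosl1 at 2.65 in αCD3, and Jund below 0 in each panel.

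Among the Jun proteins, Jun, the strongest activator of the 3, rose most. Its level was 133, 115 and 127 CPM in the Naïve libraries, 145, 188 and 152 in αCD3, 697, 529 and 568 in IFNγ, and 266, 623 and 596 in LPS. Every IFNγ and LPS library lay above every Naïve and αCD3 library, and LPS replicate 1 was the lowest of the LPS libraries. The log2 fold change against Naïve was 2.25 (SE 0.27, adjusted p = 0.000843, edgeR) in IFNγ and 1.98 (SE 0.27, adjusted p = 0.000217) in LPS. Without LPS replicate 1 the LPS value was 2.28 (adjusted p = 4.57e-06). In αCD3, all 3 libraries were above the Naïve ones, but the log2 fold change of 0.37 (SE 0.26) was not called (adjusted p = 0.296). It was called without LPS replicate 1 (adjusted p = 0.0365) and with only αCD3 and Naïve fitted (0.0465). IFNγ and αCD3 differed in Jun by 1.89 (SE 0.27, adjusted p = 0.00038), and LPS was above αCD3 by the same test, with αCD3 against LPS at −1.61 (SE 0.27, adjusted p = 0.00236). IFNγ and LPS were not told apart, with a log2 difference of 0.27 (95% interval −0.31 to 0.85), which fell to −0.03 without LPS replicate 1. Of the 31-base words of Jun, 93.6% are unique to it in the annotation, and the others are shared with Junos on the other strand. No sum with Junos was fitted.

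Junb, which pairs with Fos and Batf proteins and restrains Jun in some settings, rose in LPS alone among the comparisons with Naïve. It was at 487, 408 and 419 CPM in Naïve, at 473, 373 and 388 in αCD3, at 484, 425 and 488 in IFNγ, and at 673, 708 and 729 in LPS. The LPS libraries lay above all others, and the other 3 groups overlapped. Against Naïve, the log2 fold change of LPS was 0.68 (SE 0.10, adjusted p = 0.000327). LPS was also above the other treatments, with IFNγ against LPS at −0.59 (SE 0.10, adjusted p = 0.000889) and αCD3 against LPS at −0.77 (SE 0.10, adjusted p = 0.000537). Adding the counts of Prdx2, which overlaps Junb on the other strand left the LPS value at 0.63 (adjusted p = 0.000102), and whether counting used strand is not given in the sources.

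Jund, the Jun protein of resting cells, fell in all 3 treatments. Its level was 416, 459 and 473 CPM in Naïve, 312, 302 and 328 in αCD3, 318, 310 and 327 in IFNγ, and 344, 331 and 366 in LPS. No treated library reached the lowest Naïve library, and the treated groups lay close together. The log2 fold changes were −0.52 (SE 0.07, adjusted p = 0.000185) in αCD3, −0.50 (SE 0.07, adjusted p = 0.00111) in IFNγ and −0.37 (SE 0.07, adjusted p = 0.00096) in LPS. With the replicate block, LPS was also above αCD3 and IFNγ in Jund, by small differences (αCD3 against LPS −0.14, adjusted p = 0.0367; IFNγ against LPS −0.12, adjusted p = 0.0477). These values are uncertain in their assignment, since 49.9% of the 31-base words of Jund are unique to it in the annotation, the others being shared with Gm11175 on the other strand, which is not analysed here. Of the 12 deposited Jund counts, 7 are not whole numbers.

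**Figure D4:**
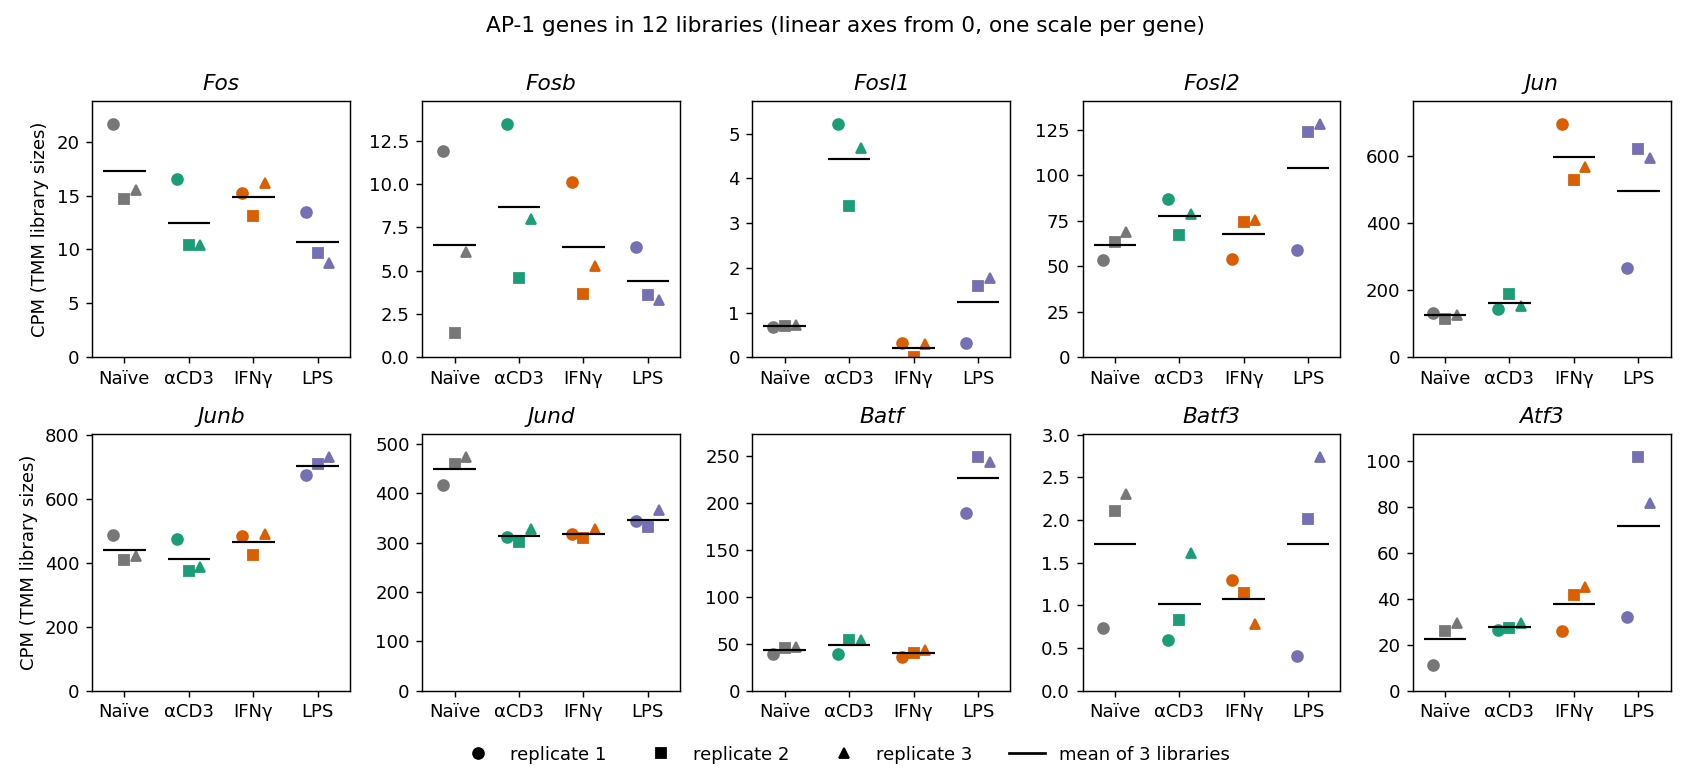
Level of each AP-1 gene in CPM (linear axis from 0, one scale per gene) in the Naïve, αCD3, IFNγ and LPS libraries, with replicate numbers as marker shapes and the mean of 3 libraries as a line. Jun is high in IFNγ and LPS, Batf and Junb in LPS, and Fosl1 in αCD3, while Jund is highest in Naïve, and LPS replicate 1 (circle) lies apart in Jun, Atf3 and Fosl2.

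Of the short bZIP proteins, Batf had the clearest change of the family. Batf, needed for effector differentiation of CD8 T cells, pairs with Jun proteins and lacks the activation domain of Fos. It was at 39.2, 45.0 and 46.5 CPM in Naïve, 39.5, 53.5 and 53.6 in αCD3, 35.5, 40.0 and 43.4 in IFNγ, and 188, 248 and 243 in LPS. Every LPS library was far above every library of the other groups, which overlapped each other. LPS raised Batf 5.21-fold, a log2 fold change of 2.38 (SE 0.15, adjusted p = 1.86e-06). IFNγ against LPS stood at −2.52 (SE 0.15, adjusted p = 1.37e-06) and αCD3 against LPS at −2.22 (SE 0.15, adjusted p = 8.83e-06). IFNγ against αCD3 was −0.30 (SE 0.15, adjusted p = 0.133), and with the replicate block −0.29, which was called (adjusted p = 0.00264).

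Batf3, the factor of cross-presenting dendritic cells, was near the limit of detection. It ranged from 0.731 to 2.30 CPM in Naïve, 0.599 to 1.61 in αCD3, 0.779 to 1.30 in IFNγ and 0.409 to 2.73 in LPS. The groups overlapped and none of the 6 comparisons was called, with a log2 fold change of 0.05 (SE 0.60) in LPS, and 0.49 (adjusted p = 0.454) without LPS replicate 1. At 4 to 37.7 counts a library, the 95% interval of that value ran from −1.28 to 1.37.

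Atf3, a stress-induced factor that can repress as a homodimer, rose in LPS. The libraries were at 11.3, 26.0 and 29.6 CPM in Naïve, 26.6, 27.5 and 29.3 in αCD3, 26.2, 41.7 and 45.3 in IFNγ, and 32.0, 102 and 81.7 in LPS. LPS replicate 1 was only a little above the highest Naïve library, and the other LPS libraries were far above it. Atf3 had a log2 fold change in LPS of 1.70 (SE 0.43, adjusted p = 0.00776), and 2.05 without LPS replicate 1. In IFNγ it was 0.77 (SE 0.43, adjusted p = 0.303) with overlapping groups. αCD3 against LPS was −1.37 (SE 0.42) with an adjusted p of 0.0448, a call that held in 6 of 19 alternative settings. It was lost without any of the αCD3 libraries, or without replicate 2 or 3 of Naïve, IFNγ or LPS (adjusted p = 0.0518 to 0.171). With the replicate block, IFNγ against LPS was also called in Atf3, at −0.87 (adjusted p = 0.0346), as it was without LPS replicate 1 (−1.28, adjusted p = 0.0148).

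The Fos proteins did not move together. Fos, the partner of Jun in the classical dimer, was at 21.6, 14.7 and 15.6 CPM in Naïve, 16.6, 10.4 and 10.4 in αCD3, 15.2, 13.1 and 16.2 in IFNγ, and 13.5, 9.67 and 8.77 in LPS. The LPS libraries were below all Naïve libraries, the nearest pair being 13.5 and 14.7. The log2 fold change in LPS was −0.71 (SE 0.23, adjusted p = 0.0262), and the call held in 16 of 19 alternatives and was lost without Naïve replicate 1 (−0.51, adjusted p = 0.111), LPS replicate 2 (adjusted p = 0.0868) or LPS replicate 3 (0.0993). With the replicate block, Fos was called lower in αCD3 too (−0.47, adjusted p = 0.0132) and higher in IFNγ than in LPS (0.50, adjusted p = 0.013). Without the block, the αCD3 value was −0.46 (adjusted p = 0.131), and it ran from −0.74 without αCD3 replicate 1, where it was called (adjusted p = 0.022), to −0.27 without Naïve replicate 1 (adjusted p = 0.421). IFNγ was also called above LPS without LPS replicate 1 (0.68, adjusted p = 0.0475). Fos was called higher than Naïve in none of the 3 treatments at 6 hours, and no earlier time was sampled.

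Fosb, an early gene like Fos, was at 11.9, 1.41 and 6.05 CPM in Naïve, 13.5, 4.55 and 7.97 in αCD3, 10.1, 3.63 and 5.26 in IFNγ, and 6.34, 3.61 and 3.30 in LPS. Replicate 1 was the highest library in all 4 groups, and the groups overlapped. No comparison was called, with log2 fold changes against Naïve from −0.58 to 0.42 and SE of 0.64 to 0.67.

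Fosl1 (Fra-1), a Fos protein without the C-terminal activation domain, rose in αCD3. It was at 0.683, 0.704 and 0.726 CPM in Naïve, 5.22, 3.39 and 4.67 in αCD3, 0.324, 0 and 0.292 in IFNγ, and 0.307, 1.60 and 1.77 in LPS. All αCD3 libraries were above all others, at 41.4 to 148 counts against 8.62 to 14.3 in Naïve and at most 3.95 in IFNγ. The log2 fold change in αCD3 was 2.65 (SE 0.54, adjusted p = 0.00319). Fosl1 passed the filter on low counts through the αCD3 libraries, and was tested because of the group where it is high. Its calls with αCD3 are thus not independent of the filter, although the call against Naïve also held with no filter. αCD3 was above IFNγ (IFNγ against αCD3 −4.38, SE 0.67, adjusted p = 0.000473) and above LPS (1.82, SE 0.52, adjusted p = 0.0329). The last call was lost in a fit of only the 2 groups and without αCD3 replicate 1 (adjusted p = 0.096), αCD3 replicate 3 (0.083), LPS replicate 2 (0.0698) or LPS replicate 3 (0.0522). In LPS against Naïve it was 0.82 (SE 0.57, adjusted p = 0.258) and was called without LPS replicate 1 (1.25, adjusted p = 0.0457).

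The Fosl1 values carry an overlap. Only 45.5% of its 31-base words are unique, and the others are shared with Ccdc85b on the other strand. Ccdc85b was at 16.8 ± 0.769 CPM in Naïve and 25.9 ± 2.56 in αCD3, and its log2 fold change was 0.62 (SE 0.09, adjusted p = 0.000506), smaller than that of Fosl1. Ccdc85b was also called in the same direction as Fosl1 in IFNγ against αCD3 (−0.80, SE 0.10, adjusted p = 0.0001), IFNγ against LPS (−0.35, SE 0.10, adjusted p = 0.0146) and αCD3 against LPS (0.45, SE 0.09, adjusted p = 0.00731). The sum of both genes, an alternative chosen after seeing the data, is mostly Ccdc85b and was 0.79 above Naïve in αCD3, a value that does not bear on Fosl1 by itself. The part of Ccdc85b reads in the Fosl1 values was not tested.

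Fosl2 (Fra-2), the most abundant Fos protein by counts, was at 53.5, 63.4 and 69.1 CPM in Naïve, 87.1, 67.0 and 79.0 in αCD3, 54.1, 74.3 and 75.4 in IFNγ, and 59.0, 124 and 128 in LPS. LPS replicate 1 lay among the Naïve libraries and the other LPS libraries far above them. The log2 fold change in LPS was 0.75 (SE 0.26, adjusted p = 0.0337), with overlapping groups, and it was called in 10 of 19 alternatives. Without LPS replicate 1 it was 1.03 (adjusted p = 0.000572), and without replicates 2 and 3 in turn 0.60 (adjusted p = 0.121) and 0.57 (adjusted p = 0.128). The call was also lost when Naïve replicate 1, 2 or 3 was left out (adjusted p = 0.108, 0.0719 and 0.051). Without LPS replicate 1, LPS was above αCD3 and IFNγ as well (αCD3 against LPS −0.70, adjusted p = 0.0128, and IFNγ against LPS −0.90, adjusted p = 0.00154).

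Between treatments, IFNγ and αCD3 differed in 2 of the 10 genes (37.2% of all tested genes were called), IFNγ and LPS in 3 (40.4%), and αCD3 and LPS in 5 (19.4%). The IFNγ libraries were below LPS in Batf, Junb and Fosl1, the last at −2.55 (SE 0.72, adjusted p = 0.0156) with overlapping groups. That call was lost without LPS replicate 2 (adjusted p = 0.0512) or replicate 3 (0.0597). With the replicate block, 6 genes differed between IFNγ and LPS in place of 3, with Fos, Jund and Atf3 added, while the share over all tested genes was 52.7% in place of 40.4%, so that 6 of 10 was near the background. Without LPS replicate 1, 6 genes also differed (41.1% of all genes then tested). Without αCD3 replicate 1, 4 genes differed between IFNγ and αCD3, with Junb and Batf added (36.9% of all genes). αCD3 and LPS differed in Fosl1 and, in the other direction, in Jun, Junb, Batf and Atf3. This count was 3 without αCD3 replicate 1, αCD3 replicate 3, LPS replicate 2 or LPS replicate 3, since the calls of Fosl1 and Atf3 were lost, and 11.6% to 14.9% of all genes were called in these 4 fits.

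Some members followed the replicate number in every group. Replicate 1 was the lowest library of its group for Batf and Atf3 in all 4 groups and the highest for Fosb in all 4 and for Fos in 3. Within-library ratios moved with it. The ratio of Fosl2 to Fos counts was 4.37 in LPS replicate 1 and reached 14.6 in LPS, against 2.47 to 4.44 in Naïve. The ratio of Jun to Jund counts, by contrast, separated the groups, at 0.251 to 0.320 in Naïve, 0.463 to 0.624 in αCD3, 1.71 to 2.19 in IFNγ and 0.774 to 1.88 in LPS. Naïve and αCD3 did not overlap there, and IFNγ and LPS did.

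Marker genes of several cell types moved with the treatments. T cell markers were called higher in αCD3 for 6 of 9 and lower in LPS for 7 of 9, and their summed level was 1431 to 1577 CPM in Naïve, 2206 to 2348 in αCD3, 1543 to 1595 in IFNγ and 1199 to 1362 in LPS. B cell markers were called lower for 5 of 8 in αCD3, 2 in IFNγ and 4 in LPS, where 1 was higher, with a summed level of 8068 to 8904 CPM in Naïve, 5706 to 6262 in αCD3, 6861 to 7083 in IFNγ and 5238 to 6085 in LPS. Macrophage and monocyte markers fell for 4 of 9 in αCD3 (8 with the replicate block) and 5 in LPS, and 1 rose in LPS, with a summed level of 384 to 732 CPM in Naïve, 256 to 397 in αCD3, 304 to 617 in IFNγ and 238 to 425 in LPS. In IFNγ none of the macrophage markers and none of the T cell markers was called, and with the block 2 rose and 3 fell of the former and 1 rose and 1 fell of the latter. Dendritic cell markers were lower for 2 of 6 in αCD3 and 2 in IFNγ (Flt3 at −0.99 and Itgax at −1.10), and 1 was higher and 1 lower in LPS (1 and 3 with the block). Neutrophil markers were lower for 3 of 5 in αCD3 (5 with the block), 1 in IFNγ (Mmp8 at −2.96) and 3 in LPS. CD4 T cell markers were lower for 2 of 3 in αCD3 and 3 in LPS, platelet markers for 1 of 4 and 2, and NK cell markers for 1 of 4 in LPS, with none of these 3 lists called in IFNγ. With the block, platelet markers were lower for 3 in αCD3 and 1 in IFNγ, and NK cell markers for 1 in αCD3 and 2 in LPS, where 1 was higher. None of the 5 erythroid markers was called, but with the block all 5 were higher in IFNγ and 3 in LPS. Of all tested genes, 22.9% were called higher and 15.7% lower in αCD3, 8.17% and 4.27% in IFNγ, and 26.9% and 22.3% in LPS. With the block, 52.4%, 24.9% and 59.5% of all tested genes were called in αCD3, IFNγ and LPS. All T cell and B cell markers were above 0 in every library. The part of these cells in the changes of Batf, Junb, Jun, Atf3, Jund and Fosl1 was not tested.

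Genes whose levels followed a member most closely over the 12 libraries were named by the correlation of log2 CPM. This is a description in which the libraries share groups, replicate numbers and depth. Batf was followed by Serpinb9b (r = 0.995), Ehd1 (0.994) and Rras2 (0.985), and Junb by Tnfaip3 (0.982), the NF-κB inhibitor A20, and Traf1 (0.971). Jun was followed by Pmepa1 (0.969) and the guanylate-binding protein genes Gbp3 (0.966) and Gbp7 (0.960). Gbp3 was at 67.5 CPM in Naïve, 121 in αCD3, 422 in IFNγ and 250 in LPS on average. Of the other members, Fos was nearest to Brap (0.970), Jund was nearest to Pole2 (0.953), Fosl1 to Slc16a13 (0.934) and Atf3 to Cox17 (0.975). After removal of the group means, r was 0.943, 0.910, 0.640 and 0.945 for these 4 pairs, so they also moved together between replicates of a group. Between members, Batf and Junb (0.861) and Fosl2 and Atf3 (0.854) were the nearest pairs, and Fos and Atf3 (−0.749) the most opposed.

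The kinases and serum response factors that act on AP-1 genes were called in both directions. Of 28 genes, namely kinases of the MAP kinase cascade and the transcription factors they act on (Srf, the Elk and the Mef2 factors), αCD3 raised 5 and lowered 3 (10 and 5 with the replicate block), against 22.9% and 15.7% of all tested genes. IFNγ raised 7 and lowered 3 (8 and 7 with the block), against 8.17% and 4.27%, and LPS raised 7 and lowered 9, against 26.9% and 22.3%. With the block, 52.4% and 24.9% of all tested genes were called in αCD3 and IFNγ. Their median log2 fold changes were 0.11, −0.04 and 0.03. In αCD3, Mapk3 (ERK1) fell by 0.67 on the log2 scale (SE 0.12) while Map2k3 was higher by 0.58 (SE 0.10) and Rps6ka3 (RSK2) by 0.55 (SE 0.07). In IFNγ, Mapk13 (p38δ) was at a low level of 1.27 to 2.03 CPM against 0 to 0.242 in Naïve, a called difference of 4.28 (SE 0.72, adjusted p = 0.00332). It was at 0.317 to 0.414 CPM in αCD3 and 0.0804 to 0.204 in LPS. It thus passed the filter on low counts through the IFNγ libraries alone, and was tested because of the group where it is high. With a Naïve library at 0, the size of its difference is uncertain. Mapk9 (JNK2), a kinase that phosphorylates Jun, was higher in IFNγ by 0.80 (SE 0.08, adjusted p = 0.000321), from 64.9 ± 2.82 to 113 ± 8.90 CPM. Map3k5 (ASK1), which acts upstream of it, was higher in IFNγ by 0.68 (SE 0.08). Other genes of that route were not called in IFNγ, with Mapk8 (JNK1) at −0.04 (adjusted p = 0.824), Map2k4 at 0.09 (0.547) and Map2k7 at −0.08 (0.704). The 3 genes of the list called lower in IFNγ were Srf at −0.44 (SE 0.06), Elk1 at −0.43 (SE 0.08) and Rps6ka1 at −0.38 (SE 0.11). Mapk9 was at 0.26 (adjusted p = 0.021) in LPS, and Map3k5 was at 0.12 there (0.239). Whether these genes bear on the Jun mRNA was not tested. In LPS, Map2k6 was at −1.95 (SE 0.53), Mef2c at −1.36 (SE 0.29) and Mapk11 at −1.17 (SE 0.25).

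Genes that restrain AP-1, namely MAP kinase phosphatases, ubiquitin ligases and mRNA decay factors, were called in αCD3 for 2 higher and 4 lower of 13, in IFNγ for 0 higher and 1 lower (4 lower with the block), and in LPS for 4 higher and 3 lower. Of all tested genes, 38.6%, 12.4% (24.9% with the block) and 49.3% were called. Their medians were −0.09, −0.07 and 0.10. Dusp10, a phosphatase of JNK and p38, was at −1.93 (SE 0.22, adjusted p = 8.7e-05) in αCD3, from 198 ± 39.8 to 51.8 ± 12.6 CPM, while Dusp2 was at 0.86 (SE 0.19) and Dusp5, which acts on ERK, at 0.82 (SE 0.14). Dusp1 was the gene called in IFNγ, at −0.47 (SE 0.12). In LPS, Dusp16 was at 1.12 (SE 0.12), Dusp6 at −0.93 (SE 0.19) and Dusp4 at 0.89 (SE 0.15).

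Of 10 DNA-binding partners of AP-1, 3 were called higher and 2 lower in αCD3 (38.6% of all tested genes were called), 2 higher and none lower in IFNγ (12.4%), and 4 higher and 4 lower in LPS (49.3%). Their median log2 fold changes were 0.36, 0.09 and 0.06. Irf4, a partner of Batf with Jun proteins, rose in αCD3 from 159 ± 0.346 to 510 ± 9.10 CPM (1.68, SE 0.10, adjusted p = 4.69e-06) and in LPS to 412 ± 63.2 CPM (1.38, SE 0.10), but was 0.17 (SE 0.10, adjusted p = 0.336) in IFNγ. Irf8, which can take the same place, rose in IFNγ (1.47, SE 0.32) and LPS (1.46, SE 0.32). Eomes, a T-box factor related to T-bet, was higher in αCD3 (1.29, SE 0.24) and IFNγ (0.97, SE 0.24). Nfatc1 was higher in αCD3 (0.94, SE 0.29), and Tbx21, the T-bet gene, in LPS (2.48, SE 0.67), where its libraries ranged from 15.0 to 167 CPM.

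Of the other bZIP genes, 6 of 25 were higher and 7 lower in αCD3, 3 higher and 4 lower in IFNγ (7 and 5 with the block), and 10 higher and 4 lower in LPS, with medians of −0.03, 0.06 and 0.48. All tested genes were called for 22.9% higher and 15.7% lower in αCD3, 8.17% and 4.27% in IFNγ (24.9% in all with the block), and 26.9% and 22.3% in LPS. Batf2 was at 14.9 to 18.5 CPM in IFNγ (adjusted p = 0.000999), at 1.23 to 6.05 in LPS and at 0.458 to 2.23 in αCD3, against 0 to 0.303 in Naïve. All 3 groups lay above Naïve, and IFNγ lay above the rest. Cebpa, a factor of myeloid cells, was called lower in all 3 treatments, for example at −2.78 (SE 0.37) in LPS. Jdp2, a repressor that pairs with Jun proteins and is named here after its values were seen, was at 1.23 (SE 0.11) in IFNγ and 1.55 (SE 0.11) in LPS.

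Among 20 tested of 21 genes known to carry AP-1 elements, αCD3 raised 6 and lowered 3 (9 and 7 with the block), IFNγ raised 4 and lowered 2 (6 and 4), and LPS raised 8 and lowered 3, where 38.6%, 12.4% and 49.3% of all tested genes were called (52.4% and 24.9% in αCD3 and IFNγ with the block). The medians were 0.08, 0.03 and 0.69. Il2ra, the high-affinity interleukin 2 receptor chain, was at 2.17 (SE 0.28) in αCD3 and 2.70 (SE 0.28) in LPS. Cd69, an early activation marker, was at 1.40 (SE 0.19) in IFNγ, and Tnf at 1.31 (SE 0.13). Gzmb (granzyme B) was called in αCD3 and LPS, with libraries from 54.2 to 561 CPM and from 35.3 to 223 CPM, and Ifng in LPS with libraries from 8.69 to 300 CPM. Such spreads make the size of those changes uncertain. Mmp9 was called lower in all 3 treatments, at −1.40, −1.59 and −2.64.

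Of 14 other immediate early genes, 6 were higher and 2 lower in αCD3, against 22.9% and 15.7% of all tested genes. In IFNγ, 1 was higher and 1 lower (3 and 2 with the block), against 8.17% and 4.27%. In LPS, 2 were higher and 3 lower (5 and 5 with the block), against 26.9% and 22.3%. With the block, 24.9% of all tested genes were called in IFNγ and 59.5% in LPS. Their median log2 fold changes were 0.32, 0.03 and 0.04. The nuclear receptors Nr4a2 (2.07, SE 0.25) and Nr4a1 (1.70, SE 0.24) were higher in αCD3, as was Myc (1.75, SE 0.15). Myc was higher in LPS too (1.98, SE 0.15), where Egr3 was at −1.97 (SE 0.63) and Egr2 at −1.68 (SE 0.18). In IFNγ, Klf6 was called higher (0.66, SE 0.07) and Egr2 lower (−0.65, SE 0.17).

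**Figure D5:**
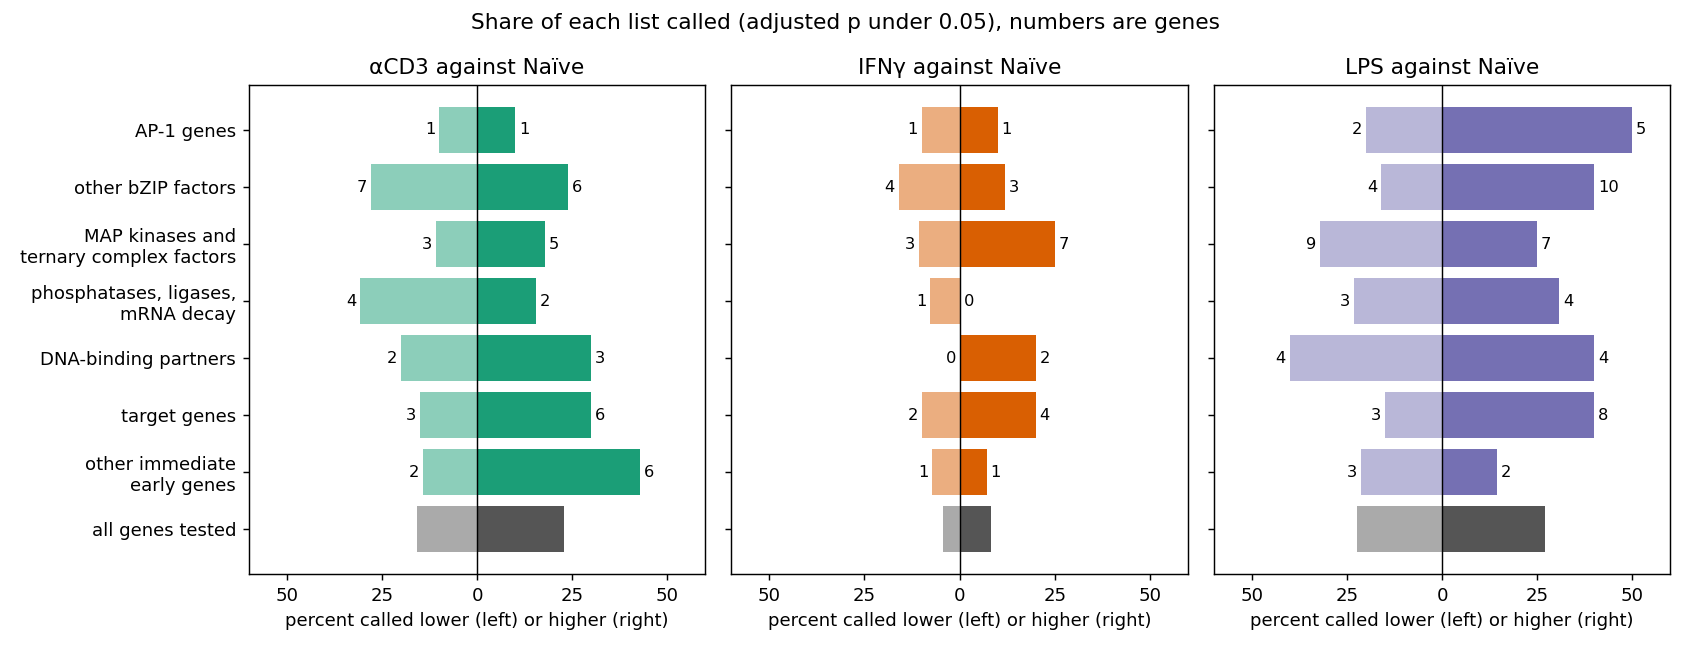
Share of each gene list called higher (right, full colour) or lower (left, pale) than Naïve, in percent of its tested genes, with the number of genes beside each bar and all tested genes in grey. The AP-1 genes reach 5 higher and 2 lower in LPS but 1 and 1 in αCD3 and IFNγ, while other immediate early genes reach 6 higher in αCD3.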

How the data were processed

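The authors pseudo-aligned reads to mm10 with Kallisto (version and annotation not given in the sources used here) and deposited the estimated counts of each gene symbol in every library, not pooled or scaled. Kallisto divides reads that match several transcripts by estimation, which bears on overlapping genes such as Jund and Fosl1. The methods of the study name TMM scaling and DESeq2 1.24.0. Here the counts were rounded and tested in R 4.3.3 with edgeR 4.0.16 (glmQLFTest, TMM, filterByExpr with a minimum count of 10, robust), all 12 libraries in 1 fit, in 6 comparisons, with Benjamini-Hochberg adjustment over 12122 genes and a threshold of 0.05 (called). CPM use TMM library sizes. Levels per kilobase use the exons of GENCODE M21 (GRCm38), which matched 20612 of the gene symbols.

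Same-numbered libraries correlated in their deviations from group means (18 pairs, r from 0.117 to 0.401, other pairs at most 0.102), and each of the 12 libraries was nearest to its own number, so the numbers pair the libraries. The labels do not say what a number marks. Tests on simulated counts for αCD3 against Naïve (12122 genes) recovered 84% of genes changed 2-fold and 98% of those changed 4-fold, with 9 false calls. Changed genes were drawn from those above 5 CPM on average, so these rates do not cover Fosl1 and Batf3. The simulated libraries held no effect of the replicate number, so the rates do not cover paired libraries either. The alternatives were DESeq2 and limma-voom, other scalings, no filter, the replicate block, 2-group fits and leaving out each library. Genes that followed a member were the 3 with the highest Pearson r (log2 CPM, prior count 2) among genes with at least 5 CPM in a group, and up to 3 called genes with the largest change were named per list and comparison. Some genes picked this way are not reported here. The members and lists were chosen with earlier results of these data known. Protein sequences were not used here.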

Additional observations from a re-analysis of the deposited data

How the results depend on the processing

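Over 20 alternatives, no called log2 fold change of an AP-1 gene changed sign. The calls of Jun, Jund, Batf and Junb in the comparisons with Naïve, of Atf3 in LPS and of Fosl1 in αCD3 held in every alternative, where for Fosl1 the sum with Ccdc85b is set aside. With each library left out in turn, the number of AP-1 genes called against Naïve was 2 to 3 in αCD3, 2 to 2 in IFNγ and 5 to 8 in LPS. The shares over all genes in these fits were 25.4% to 40.2%, 6.38% to 13.4% and 38.6% to 49.8%. The number was 2 to 4 in IFNγ against αCD3 (28.1% to 38%), 2 to 6 in IFNγ against LPS (31.9% to 41.1%) and 3 to 6 in αCD3 against LPS (11.6% to 21%). For any difference it was 5 to 8, where the share in the fit of all libraries was 59.9%. With the replicate block IFNγ against LPS gave 6 in place of 3 (52.7% in place of 40.4% over all genes). A fit of only αCD3 and LPS gave 3 in place of 5 (12.3% in place of 19.4% over all genes), without Fosl1 and Atf3. Apart from the calls gained that are given above, the block changed no other call of an AP-1 gene. The call of Fosl2 in LPS was lost with library sizes alone (adjusted p = 0.092), with no filter (0.0621), with limma-voom (0.0568) and with only the 2 groups fitted (0.0837). Over all genes, calls in IFNγ against Naïve were 1508, but 3020 with the block, 2279 with library sizes alone and 787 to 1651 with each library left out in turn. Those in αCD3 against LPS were 2351, but 4202 with the block, 1440 with 2 groups fitted and 1429 to 2590 with each library left out in turn. Library sizes alone moved the median log2 fold change over all genes to −0.13 (αCD3), −0.16 (IFNγ) and −0.22 (LPS). The causes were not tested. Depth behind Fosl1 was 0 to 148 counts a library, and behind Batf3 4 to 37.7.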
